A study of Mus musculus with 6 samples.

Results

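The protein genes that carry out pre-mRNA splicing were examined in cultured mouse pancreatic cancer cells in which Brca2 was silenced. Members were taken from the deposited count table by gene symbol. They were all genes of the SR protein (Srsf), hnRNP (Hnrnp), SF3a or SF3b (Sf3a, Sf3b), Snrp or U2af families. This rule used names alone and no measured value, but it was chosen with earlier results of these data known. This gave 52 of the 10616 genes in the table, namely 10 SR, 19 hnRNP, 9 SF3, 11 Snrp and 3 U2af genes. KPC cells, a line from a mouse model of pancreatic ductal adenocarcinoma, had been infected with a lentiviral pLKO.1 vector and selected with puromycin. The vector held either a short hairpin RNA against Brca2 (KPC cells shBrca2, 3 libraries) or a non-targeting sequence (KPC cells shControl, 3 libraries), so both groups carried a vector and had gone through selection. Hairpin silencing leaves residual Brca2 transcript. How many Brca2 hairpins were used is not given in the sources used here, and a change shared by the shBrca2 libraries cannot be told apart from an effect of the hairpin itself. RNA with poly(A) tails came from sorted live cells, and the 3' ends of transcripts were sequenced.

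Splicing removes introns through the spliceosome, which is built on each intron from small nuclear ribonucleoproteins (snRNPs) and many other proteins. The U1 snRNP pairs with the 5' splice site, the U2af heterodimer binds the polypyrimidine tract and the AG at the 3' splice site, and the U2 snRNP with its SF3a and SF3b complexes selects the branch point. SR proteins bind exons and mostly favor their inclusion, hnRNP proteins often oppose it, and many transcripts of both families hold poison exons, whose inclusion sends the transcript to nonsense-mediated decay. A count of 3' ends adds up all isoforms that end at the same site, so the values here are levels of gene output and hold no information on exon choice.

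Members of a family could share promoter sequence, so the promoters are shown before the counts. RefSeq (assembly GRCm38.p6) held 59 promoter windows, each from 250 bases before to 50 bases after a transcription start, for 45 of the 52 members. Sf3b4, Sf3b5, Snrpb, Snrpd1, Hnrnpll, Hnrnpul2 and U2af2 had no entry. Windows of 4 members are shown, the main partner of Sf3b4 (Sf3b2), the Snrp genes with the smallest p in each direction (Snrpg and Snrpc) and the SR gene with the widest spread among libraries (Srsf7). Capitals mark matches on either strand to the ETS motif CCGGAAG, the SP1 motif GGGCGG, the CCAAT box, the NRF1 core GCATGCGC, the YY1 motif AAGATGGC, the TATA box TATAAA or the E2F motifs TTTGGCGC and TTTCCCGC, and none of these words contains another.
Sf3b2 (chr19:5295408-5295707, minus strand): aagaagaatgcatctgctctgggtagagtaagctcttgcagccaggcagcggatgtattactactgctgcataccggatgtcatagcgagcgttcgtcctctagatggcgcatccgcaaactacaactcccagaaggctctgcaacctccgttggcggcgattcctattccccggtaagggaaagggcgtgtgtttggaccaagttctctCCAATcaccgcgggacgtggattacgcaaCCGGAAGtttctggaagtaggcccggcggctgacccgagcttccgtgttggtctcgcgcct
Snrpg (chr6:86371290-86371589, plus strand): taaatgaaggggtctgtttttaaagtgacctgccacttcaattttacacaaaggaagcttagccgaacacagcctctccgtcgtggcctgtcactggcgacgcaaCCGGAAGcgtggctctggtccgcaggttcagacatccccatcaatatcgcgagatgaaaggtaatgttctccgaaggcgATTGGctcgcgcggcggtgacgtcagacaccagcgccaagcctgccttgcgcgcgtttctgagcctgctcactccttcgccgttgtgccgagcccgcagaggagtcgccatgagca
Snrpc (chr17:27839837-27840136, plus strand): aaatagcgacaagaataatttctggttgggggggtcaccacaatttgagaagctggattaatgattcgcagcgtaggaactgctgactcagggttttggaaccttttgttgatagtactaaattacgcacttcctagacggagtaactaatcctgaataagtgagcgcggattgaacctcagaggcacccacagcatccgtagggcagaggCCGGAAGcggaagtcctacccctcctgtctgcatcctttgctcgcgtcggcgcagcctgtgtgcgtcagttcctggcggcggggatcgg
Srsf7 (chr17:80207256-80207555, minus strand): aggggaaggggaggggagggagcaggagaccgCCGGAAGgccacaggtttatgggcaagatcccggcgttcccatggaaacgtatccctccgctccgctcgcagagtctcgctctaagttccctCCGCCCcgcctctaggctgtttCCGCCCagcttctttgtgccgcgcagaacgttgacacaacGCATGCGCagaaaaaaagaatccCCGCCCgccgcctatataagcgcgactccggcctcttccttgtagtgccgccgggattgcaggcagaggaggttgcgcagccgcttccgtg
All 4 windows held an ETS match, and none of them held the exact letters TATAAA. Variants of the TATA box, such as tatataag in the Srsf7 window, were not counted. The ETS letters were found in 35.6% of the member windows, in 18.5% of the 10888 windows of all genes in the count table and in 8.86% of all 32851 windows, and 16 of the 45 members with a window had a match. For E2F the shares were 8.47%, 3.04% and 1.56% in that order, and for SP1 71.2%, 63.9% and 35.7%. The CCAAT box was in 47.5% of the member windows against 37.9% of table gene windows, the NRF1 core in 6.78% against 5.40%, YY1 in 3.39% against 4.66% and the TATA box in 10.2% against 7.02%. The median GC content was 61% both for member windows and for those of table genes. Some genes have several overlapping windows, so windows are not independent, and a match describes letters and not binding.

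The libraries held 1519340 to 2452467 counts, and the silenced gene itself was lower where the labels place the hairpin. Brca2 had raw counts of 10, 11 and 14 in shBrca2 and 33, 52 and 33 in shControl, a log2 fold change of -1.61 (DESeq2, adjusted p = 0.029). In the fits that left out 1 library its call was lost without shBrca2 replicate 2, shBrca2 replicate 3 or shControl replicate 2, at DESeq2 adjusted p-values of 0.152, 0.233 and 0.371. With the TMM size factors of edgeR, or with genes limited to those with at least 10 counts in 3 libraries, no value was available for Brca2. Of 11 epithelial and ductal markers 10 were in the table, with summed levels of 8197 to 8520 CPM (counts scaled to the library total) in shBrca2 and 8553 to 9356 CPM in shControl, while 2 of 10 fibroblast, 2 of 8 immune, 2 of 6 acinar and 0 of 5 endothelial markers were in the table. Of the 10 epithelial and ductal markers 2 were called, both higher in shBrca2, Krt7 with a log2 fold change of 1.21 (DESeq2, adjusted p = 2.07e-06) and Sox9 with 1.20 (DESeq2, adjusted p = 0.0391). Over the 10 markers the log2 fold change was above 0 for 3 and below 0 for 7, with a median of -0.14. The summed levels were 8.56 to 10.9 CPM in shBrca2 and 6.85 to 20.03 CPM in shControl for fibroblast markers, 108 to 176 and 155 to 227 CPM for immune markers, which were Cd14 and Cd68 without the defining Ptprc, and 16.5 to 31.4 and 18.1 to 25.3 CPM for acinar markers. Whether other cell types had a part in any result was not tested. The first principal component of genes with a mean normalized count of at least 10 held 41.1% of the variance. On it shControl replicates 1 to 3 stood at -0.18, 0.26 and 0.74, and shBrca2 replicates 1 to 3 at -0.42, 0.02 and -0.43. It did not separate the groups, since shControl replicate 1 lay between shBrca2 libraries.

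To ask whether the splicing factors differed upon silencing of Brca2, each family was compared between shBrca2 and shControl. A gene was called when its DESeq2 adjusted p was under 0.1, its absolute log2 fold change over 0.5 and its mean normalized count over the 6 libraries (base mean) over 5. Of the 52 members 50 were tested, and Hnrnpa3 and Hnrnpd were too low to be. Only Sf3b4, a subunit of the SF3b complex, was called, and it was lower in shBrca2. Among all 9997 genes tested 1.27% were called, 0.77% higher and 0.5% lower, so 1 called member of 50 was near the background. An unadjusted p under 0.05 was found for 5 members (10%) and for 8.66% of all genes. The median member log2 fold change was -0.04 against -0.00094 for all genes, with 22 of the 50 members above 0 and 28 below.

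The members were counted more deeply than most genes. The median base mean was 254 for the members and 64.1 for all tested genes, and the 95% interval of the log2 fold change stayed between -0.5 and 0.5 for 28% of the members and 13.5% of all genes. It stayed between -1 and 1 for 40 of the 50 members and for 6189 of the 9997 genes. Changes past the fold threshold of 0.5 therefore cannot be set aside for most members. For 8 members the normalized counts of shBrca2 and shControl were fully separate, 2 higher (Snrpc and Srsf1) and 6 lower (Hnrnpl, Sf3b4, Snrpa1, Snrpd1, Snrpd2 and Srsf4). The corresponding share of all tested genes was 20.6%, above the share of the members. Snrpd2, Snrpa1 and Hnrnpl lie outside the rule for named genes and were chosen after their values were seen.

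**Figure D1:**
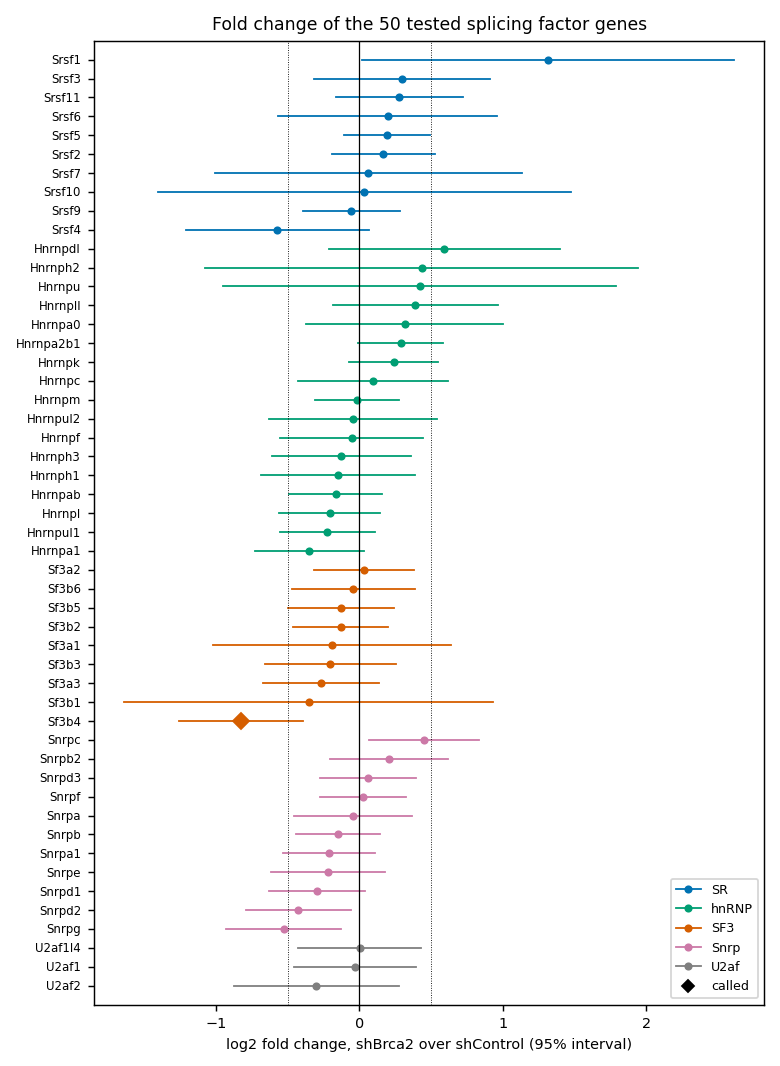
The horizontal axis gives the log2 fold change of shBrca2 over shControl for each of the 50 tested members, sorted within family by color, with bars for the 95% interval and dotted lines at -0.5 and 0.5. Sf3b4 at -0.82 is the only called gene (diamond), and SR genes lie mostly to the right of 0 and SF3 genes mostly to the left. Genes with few counts have the longest bars, Hnrnph2, Srsf10 and Hnrnpu first, followed by Srsf1 and Sf3b1.

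The SF3b complex clamps the U2 snRNP onto the branch point, and Sf3b4 is the subunit that contacts the pre-mRNA upstream of it and binds Sf3b2. Sf3b4 (chr3:96172506-96177564, GRCm38, overlapping the annotated small nucleolar RNA Gm22027) had normalized counts of 503, 396 and 271 in shBrca2 replicates 1 to 3. In shControl replicates 1 to 3 it had 617, 576 and 870.1. All shBrca2 libraries were below all shControl libraries, with shBrca2 replicate 3 the lowest and shControl replicate 3 the highest of the 6. The means were 390 ± 116 and 688 ± 159 (SD, n = 3 each), a log2 fold change of -0.82 ± 0.22 (SE) with a 95% interval of -1.26 to -0.39, that is, 0.565 of the control level (DESeq2, adjusted p = 0.0271). A search of the genome found no near-identical copy of its transcript end.

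The call of Sf3b4 rested on several libraries. With edgeR the log2 fold change was the same at -0.82 but the adjusted p was 0.145. With DESeq2 the adjusted p was 0.163 when shBrca2 replicate 2 was left out, 0.485 for shBrca2 replicate 3, 0.106 for shControl replicate 2 and 0.311 for shControl replicate 3. Omitting shBrca2 replicate 3 or shControl replicate 3, the libraries at the ends of its range, gave a log2 fold change of -0.62 in either case. The gene was still called when the omitted library was shBrca2 replicate 1 (DESeq2, adjusted p = 0.0119) or shControl replicate 1 (DESeq2, adjusted p = 0.0282).

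The partners of Sf3b4 in the complex did not pass the test. Sf3b2, its direct binding partner, had 689, 819 and 618 normalized counts in shBrca2 and 647, 830.2 and 851 in shControl, for a log2 fold change of -0.13 and a 95% interval of -0.46 to 0.20. Sf3b5, a small subunit, had 336, 389 and 256 in shBrca2 and 322, 369.8 and 378 in shControl, with an interval of -0.50 to 0.24. For both genes the groups overlapped, and shBrca2 replicate 3 was the lowest library, as it was for Sf3b4. Sf3b3 (log2 fold change -0.20) and Sf3b6 (-0.04), the latter contacting the branch point adenosine, also overlapped. Sf3b1, the scaffold of the complex and a recurrently mutated gene in cancer, had only 5 to 20 counts per library, and its interval of -1.64 to 0.93 covers changes in both directions.

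In the SF3a complex, which bridges the U2 snRNP and SF3b, Sf3a3 had 176, 159 and 169 normalized counts in shBrca2 and 208, 238 and 159 in shControl, a log2 fold change of -0.27 (DESeq2, adjusted p = 0.83). Its groups overlapped through shControl replicate 3, without which the log2 fold change was -0.42, and it was -0.13 without shControl replicate 2. Sf3a1 (log2 fold change -0.19) and Sf3a2 (0.03), given with Sf3b1, Sf3b3 and Sf3b6 to complete the complexes, did not pass the test either. Across the 9 SF3 genes the log2 fold change was below 0 in 8, and the median was -0.19.

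Among the genes named Sf3b, Sf3b4 made up 24.4%, 17% and 16.4% of the summed counts of the 6 Sf3b genes in shBrca2 replicates 1 to 3 and 29.7%, 23.7% and 30.3% in shControl. The groups overlapped, since shBrca2 replicate 1 was above shControl replicate 2. The means were 19.3% ± 4.44 and 27.9% ± 3.67 (SD, n = 3), a difference of -8.63 percentage points (two-sided p = 0.2 by an exact permutation test, whose smallest possible p with these libraries is 0.1). Leaving out 1 library at a time gave differences of -11.2 to -7.21 percentage points. The sum leaves out Phf5a, an SF3b subunit that the name rule does not take in. With Phf5a in the sum the means were 15.2% ± 3.97 and 22.1% ± 2.87 (SD, n = 3; exact permutation test, p = 0.2), again with overlap. Both measures were added after the values of Sf3b4 were known.

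**Figure D2:**
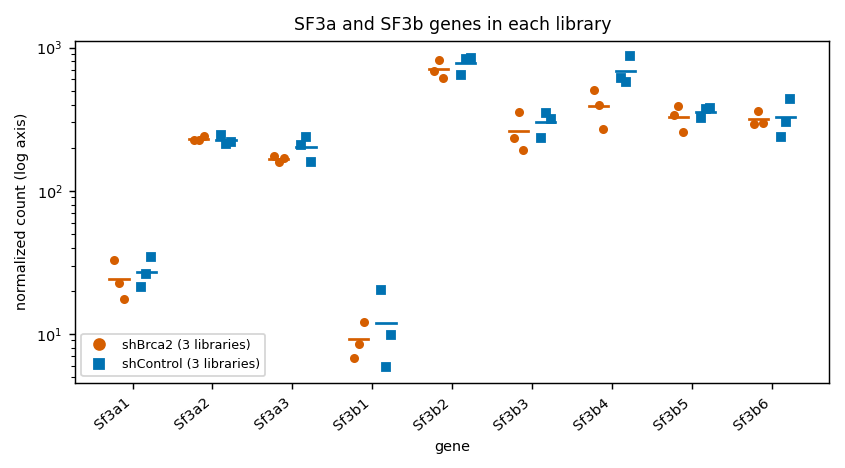
Normalized counts of the 9 SF3 genes on a log axis, with 1 circle for each shBrca2 library, 1 square for each shControl library, drawn from left to right as replicates 1 to 3, and a line at each group mean. The groups separate only for Sf3b4, whose shBrca2 libraries run from 271 to 503 and shControl libraries from 576 to 870.1.

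The Snrp family encodes protein subunits of the snRNPs. Of its 11 genes 7 form the Sm ring around the snRNAs (Snrpb, Snrpd1, Snrpd2, Snrpd3, Snrpe, Snrpf and Snrpg), 2 are particular to U1 (Snrpa and Snrpc) and 2 to U2 (Snrpa1 and Snrpb2). None was called, and 3 (Snrpg, Snrpc and Snrpd2) had an unadjusted p under 0.05. Values of the individual genes differed in direction.

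Snrpg, one of the smallest Sm proteins, had 563, 427 and 501 normalized counts in shBrca2 and 491, 788 and 869 in shControl. The groups overlapped because shControl replicate 1 was below shBrca2 replicates 1 and 3, and the log2 fold change was -0.53 (DESeq2, adjusted p = 0.307). When shControl replicate 1 was left out the log2 fold change was -0.74 and Snrpg passed the thresholds (DESeq2, adjusted p = 0.0052), whereas without shControl replicate 3 it was -0.37. Snrpd1 had 782, 795 and 843 in shBrca2 and 1247, 879.7 and 853 in shControl, a log2 fold change of -0.30 (DESeq2, adjusted p = 0.665) in which shControl replicate 1 stood well above the other 5 libraries and without which it was -0.10. Snrpd2 was also lower in every shBrca2 library, at 264 to 413 against 420.2 to 497 (log2 fold change -0.43, DESeq2 adjusted p = 0.438). Snrpb, the most abundant Snrp gene, had 1083, 1107 and 919 in shBrca2 and 1145, 1265 and 1033 in shControl, which overlapped, with a log2 fold change of -0.15. Snrpf overlapped throughout its range of 619 to 772 normalized counts, with a log2 fold change of 0.02.

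The U1 subunit Snrpc, which stabilizes pairing of U1 with the 5' splice site, went the other way. It had 266, 269 and 299 normalized counts in shBrca2 and 161, 207 and 242 in shControl, so that every shBrca2 library was above every shControl library. The log2 fold change was 0.45 with a 95% interval of 0.07 to 0.84, and it did not pass the test (DESeq2, adjusted p = 0.428). The end of the Snrpc transcript has 5 near-identical copies elsewhere in the genome, so its reads are uncertain in origin.

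Summed over the family, Snrp genes took 0.256%, 0.258% and 0.263% of all counts in shBrca2 and 0.279%, 0.291% and 0.299% in shControl. These values did not overlap, with means of 0.259% ± 0.0037 and 0.290% ± 0.0096 (SD, n = 3) and a log2 ratio of -0.16. Within the family, the 7 Sm ring genes together took 0.204%, 0.199% and 0.205% in shBrca2 and 0.236%, 0.233% and 0.237% in shControl. The spread within each group of the ring sum, an SD of 0.0033 in shBrca2 and 0.0020 in shControl, was small beside the difference of the means. Single ring genes varied more, and in shControl replicates 1 to 3 Snrpd1 fell from 1247 to 853 normalized counts while Snrpg rose from 491 to 869. Snrpd3 (log2 fold change 0.06) and Snrpf (0.02) were above 0, and Snrpe (-0.22) was below, as were Snrpb, Snrpd1, Snrpd2 and Snrpg. Snrpd3 and Snrpe are given to complete the ring. The log2 ratio of the ring sum, -0.22, ranged from -0.22 to -0.20 when 1 library was left out and from -0.26 to -0.17 when 1 gene was left out. The ring sums rested on 3103 to 5725 counts per library. The U1 pair overlapped between the groups with a log2 ratio of 0.19, as did the U2 pair at -0.04. The split into ring, U1 and U2 proteins follows the known composition of the particles, was made after the family sum was seen and is given as a description with no test. Of single tested genes 20.6% did not overlap between the groups. How often sums over other gene sets separate was not computed, so no background is given for these sums or for that of all members.

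**Figure D3:**
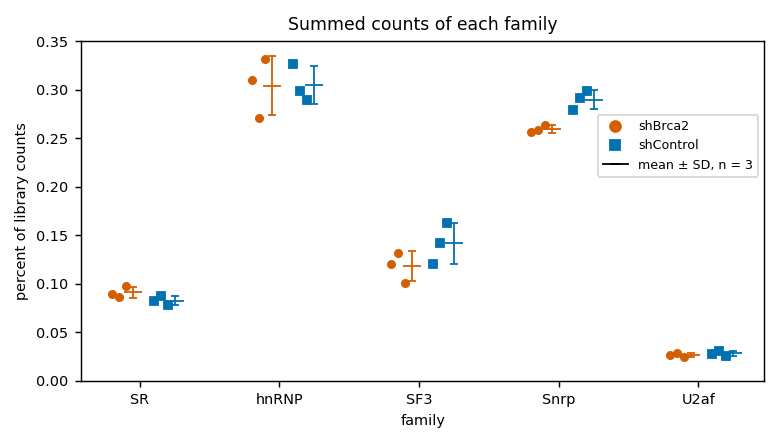
The vertical axis starts at 0 and gives the summed counts of each family as a percent of all counts in the library, with 1 point per library, drawn as replicates 1 to 3, and the mean ± SD of 3 libraries beside them. The Snrp points do not overlap, at 0.256 to 0.263% in shBrca2 against 0.279 to 0.299% in shControl, whereas those of the SR, hnRNP, SF3 and U2af families do.

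The other family sums overlapped between the groups. SF3 genes took 0.101% to 0.132% of counts in shBrca2 and 0.121% to 0.162% in shControl, a log2 ratio of -0.26 that was -0.13 without Sf3b4. It was -0.16 without shBrca2 replicate 3 and -0.15 without shControl replicate 3, with a range of -0.37 to -0.15 over the fits that left out 1 library. For SR genes the shares were 0.0858% to 0.0973% and 0.0776% to 0.0869%, a log2 ratio of 0.15 that was 0.093 without shBrca2 replicate 3. For hnRNP genes they were 0.271% to 0.331% and 0.289% to 0.327%, a log2 ratio of -0.0021 whose sign changed with the library left out (-0.068 to 0.075) and which was 0.080 without Hnrnpab. All 52 members together took 0.798% ± 0.0215 in shBrca2 and 0.846% ± 0.0087 in shControl (SD, n = 3), without overlap, the lowest being shBrca2 replicate 2 at 0.775% and the highest shControl replicate 3 at 0.853%. In bulk libraries fewer cells with a transcript and less of it per cell cannot be told apart.

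The U2af genes encode the dimer that marks the 3' splice site, and none of the 3 was called. U2af1, which reads the AG, had 199, 329.9 and 204 normalized counts in shBrca2 and 225, 274 and 251 in shControl, for a log2 fold change of -0.03. Its highest and its lowest library were both shBrca2 libraries. U2af2, which binds the polypyrimidine tract, had 187, 87.0 and 177 in shBrca2 and 240.5, 199 and 114 in shControl, a log2 fold change of -0.30 (DESeq2, adjusted p = 0.885). Its level differed 2.15-fold within shBrca2 and 2.11-fold within shControl, more than between the group means. U2af1l4, a paralog of U2af1 whose gene overlaps Psenen, had 155, 162 and 118 in shBrca2 and 123, 158 and 151 in shControl, for a log2 fold change of 0.00155.

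SR proteins recognize exonic enhancers and are regulated by phosphorylation of their arginine and serine rich domains. The log2 fold change was above 0 for 8 of the 10 genes and the median was 0.18, but none was called and the smallest adjusted p was 0.567 (DESeq2). The 3 most abundant, Srsf5, Srsf2 and Srsf9, overlapped between the groups. Srsf5, which alone held 33.1% to 36.8% of SR counts, had 619.8, 637 and 735 normalized counts in shBrca2 and 574, 626 and 545 in shControl (log2 fold change 0.19, 95% interval -0.11 to 0.49). Srsf2, also known as SC35 and much used to mark nuclear speckles, had 317, 391 and 359 in shBrca2 and 262, 369.8 and 319 in shControl (log2 fold change 0.17). Srsf9 had 306, 347 and 302 in shBrca2 and 283, 351 and 359.9 in shControl (log2 fold change -0.06).

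Srsf1, the founding SR protein and a proto-oncogene, and Srsf4, an SR protein with a long arginine and serine rich domain, separated in opposite directions. Srsf1 had raw counts of 12, 16 and 13 in shBrca2 and 9, 5 and 4 in shControl. The log2 fold change of 1.31 had a 95% interval of 0.02 to 2.61 (DESeq2, adjusted p = 0.567), so the higher value in shBrca2 rests on few counts. Srsf4 had normalized counts of 32.7, 30.2 and 44.4 in shBrca2 and 48.5, 52.0 and 60.3 in shControl, for a log2 fold change of -0.57 (DESeq2, adjusted p = 0.661). Neither difference passed the test.

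Among hnRNP genes the median log2 fold change was -0.02, 8 of 17 tested genes were above 0, and the smallest adjusted p was 0.602 (DESeq2). Hnrnpab, an RNA binding protein of the A/B type and the most abundant of all members, had 1870.2, 1772 and 2385 normalized counts in shBrca2 and 2652, 2128 and 1982 in shControl. The groups overlapped, and shControl replicate 1 was the highest library. Hnrnpk, which binds C-rich RNA and DNA through KH domains, had 1365, 976 and 1234 in shBrca2 and 1076, 979 and 973 in shControl (log2 fold change 0.24). Hnrnpa2b1, which acts in splicing and RNA transport, had 983, 815 and 1056 in shBrca2 and 817, 763 and 759 in shControl. Only shBrca2 replicate 2 overlapped the controls, and the log2 fold change was 0.29 with an interval of -0.01 to 0.58 (DESeq2, adjusted p = 0.602). Hnrnpa1, which binds exonic silencers, leaned lower with 208, 252 and 235 against 233, 333 and 322 (log2 fold change -0.35, DESeq2 adjusted p = 0.639). The ends of Hnrnpa1 and Hnrnpa2b1 transcripts have 5 and 2 near-identical copies elsewhere in the genome.

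The largest fold changes among hnRNP genes with a base mean of at least 20 were those of Hnrnpdl and Hnrnpll. Hnrnpdl, a paralog of Hnrnpd that binds AU-rich RNA, had 62.7, 50.1 and 74.0 normalized counts in shBrca2 and 75.8, 31.9 and 16.8 in shControl. The control libraries differed 4.51-fold among themselves and enclosed all shBrca2 values, so the log2 fold change of 0.59 did not exceed their spread (DESeq2, adjusted p = 0.783). Leaving out shControl replicate 1 alone moved it to 1.34 and past the thresholds (DESeq2, adjusted p = 0.0735), and leaving out shControl replicate 3 moved it to 0.22. Hnrnpll, a regulator of alternative splicing in lymphocytes, had 110.3, 75.6 and 81.8 in shBrca2 and 96.0, 53.7 and 54.4 in shControl, for a log2 fold change of 0.39 (DESeq2, adjusted p = 0.826).

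Some members varied more among libraries of 1 group than between groups. Of the 45 members with a base mean of at least 20, 6 (13.3%) differed over 2-fold within a group, namely Srsf3, Srsf6, Srsf7, Hnrnpdl, Hnrnph1 and U2af2, compared with 11.1% of 7796 genes. Of these, 3 were among the 8 SR genes at that level, and Srsf6, Srsf7 and Hnrnph1 were chosen after their values were seen. Srsf7, an SR protein with a zinc knuckle, had 43.6, 10.4 and 38.3 normalized counts in shBrca2 and 57.6, 17.6 and 12.9 in shControl. It differed 4.19-fold within shBrca2 and 4.48-fold within shControl, on raw counts of 11 to 57. Srsf3, the smallest SR protein and the closest relative of Srsf7, had 131, 74.7 and 108 in shBrca2 and 130.3, 67.9 and 56.4 in shControl. Both genes were high in shBrca2 replicates 1 and 3 and in shControl replicate 1 and low in the other 3 libraries.

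A shared order, with shBrca2 replicate 2 the lowest of its group and with shControl replicate 1 the highest and replicate 3 the lowest of theirs, was seen in 11 of the 45 members (24.4%) and in 10.7% of the 7796 genes. The 11 were Srsf3, Srsf7, Srsf11, Hnrnpa2b1, Hnrnpab, Hnrnpdl, Hnrnph1, Hnrnph3, Hnrnpk, Snrpd2 and U2af2. The pattern was picked after the values were seen. The lowest of the 6 libraries was shControl replicate 3 for 12 of 45 members (26.7%, against 17.9% of all genes), and the highest was shControl replicate 1 for 13 (28.9% against 20.02%). No batch is given in the labels, and a part of batch or depth in this order was not tested.

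**Figure D4:**
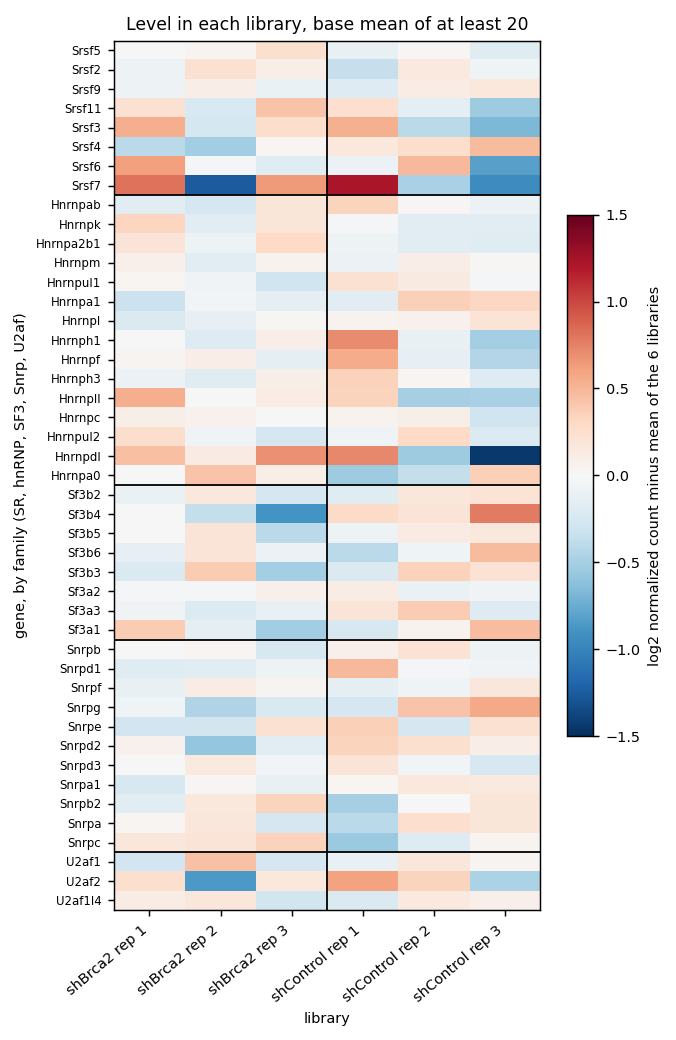
Each row is 1 of the 45 members with a base mean of at least 20 and each column 1 library, colored by the log2 normalized count minus the mean of the 6 libraries (red above, blue below), with black lines between families and groups. Srsf7, Srsf3, Hnrnpdl and Hnrnph1 are red in shControl replicate 1 and blue in shControl replicate 3, and Sf3b4 is bluest in shBrca2 replicate 3 and reddest in shControl replicate 3.

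Genes of the splicing pathway that the name rule does not take in gave 3 calls among 131 tested genes of 5 lists, against the background of 1.27%. Of 32 tested splicing regulators 1 rose and 1 fell. Nono, a paraspeckle protein that also acts in transcription and DNA repair, had 268, 246 and 327 normalized counts in shBrca2 and 216, 168 and 125 in shControl (log2 fold change 0.73, DESeq2 adjusted p = 0.0816). Srrm2, a scaffold of nuclear speckles whose gene overlaps Elob, had 144, 206 and 135 in shBrca2 and 210.2, 280.1 and 307 in shControl (log2 fold change -0.71, DESeq2 adjusted p = 0.0981). Of 18 tested genes for the exon junction complex and decay of spliced RNA 1 fell, Smg5, an adaptor of nonsense-mediated decay, with 158, 137 and 89.6 in shBrca2 and 197, 232 and 240.3 in shControl (log2 fold change -0.81, DESeq2 adjusted p = 0.0422). The groups did not overlap for any of these 3 genes, but none was called by edgeR, with adjusted p-values of 0.145 for Nono, 0.152 for Srrm2 and 0.114 for Smg5. Each also lost its DESeq2 call without shBrca2 replicate 3, shControl replicate 2 or shControl replicate 3, among other libraries, and over the fits that left out 1 library the adjusted p reached 0.70 for Nono, 0.706 for Srrm2 and 0.434 for Smg5.

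None of 7 tested SR protein kinases, 56 other core spliceosome genes or 18 snRNP assembly genes was called. The median log2 fold change was 0.03 for the kinases, -0.12 for the core genes, -0.07 for the assembly genes, 0.07 for the regulators and -0.11 for exon junction and decay genes. Phf5a, the remaining subunit of SF3b, was in the core list. It had a log2 fold change of -0.23 (DESeq2, adjusted p = 0.75), with 492 to 586 normalized counts in shBrca2 and 592 to 654 in shControl, and is named because it completes the complex of Sf3b4.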

How the data were processed

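RNA-seq of KPC cells shBrca2 (3 libraries) and shControl (3 libraries) was analysed from the table of raw counts per gene symbol that the authors deposited, with 1 column per library and no normalization. Libraries were 3' end libraries made by a variation of MARS-seq. The submitters' processing notes name bcl2fastq, cutadapt, STAR 2.4.2a, HTSeq, DESeq2 and mm10; the annotation and the use of strand and of molecular identifiers are not given in the sources used here. The SDs given here are the spread among the 3 libraries of a group. Standard errors and intervals of fold changes come from the DESeq2 fit, which takes in the spread between libraries, so they are not counting error alone. Depth was 1519340 to 2452467 counts per library. Groups came from the source name. The labels do not say whether the libraries of a group are separate cultures, and the study's supplement gives n = 3 mice for each group yet describes cultured cells, so p-values measure the spread between these libraries, which may be technical.

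Genes were tested with DESeq2 1.42.0 in R 4.3.3 (median-of-ratios size factors, likelihood ratio test of the group term, as in the study's methods), with Benjamini-Hochberg adjustment over all genes with an adjusted p. Calls were limited to genes with a log2 fold change beyond 0.5 in either direction, an adjusted p below 0.1 and a base mean above 5. Normalized counts are raw counts over the size factor, fold changes were not shrunken, and replicate numbers only name libraries. Alternatives were edgeR 4.0.16, the Wald test, other size factors, filters and thresholds, and leaving out each library.

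Members and lists were chosen with earlier results of these data known. Named genes were, in each family, the 3 with the highest mean, the 2 with the smallest p and the 2 with the largest absolute log2 fold change at a base mean of at least 20, plus called genes and Brca2. Positions and promoters are from RefSeq on GRCm38.p6, the build of the counts; 7 members had no promoter entry. The last 200 bases of each member's transcript were searched in GRCm39 with BLAST 2.17.0, and a copy needed 95% identity over at least 150 bases. By this search 13 members had a near-identical copy, and 14 overlapped a protein coding gene, so their counts are less certain. Among members named by the rule, those with a copy were Hnrnpa1, Hnrnpa2b1, Snrpc, Snrpd1, Srsf2, U2af1 and U2af2. Those overlapping a protein coding gene were Hnrnpab, Hnrnpdl, Hnrnpk, Hnrnpll, Snrpf, Srsf2, Srsf9 and U2af1l4. Srsf12, Hnrnpr and Snrpn were not analysed here.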

Additional observations from a re-analysis of the deposited data

How the results depend on the processing

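The count of called genes was 121 with edgeR and 125 to 130 under the other DESeq2 tests, size factors and low-count filters, 94 at an adjusted p under 0.05, 114 at a base mean over 20, 131 with no fold change minimum, and 47 to 140 when 1 library was left out. The number of called splicing factor genes was 0 with edgeR, where 121 genes were called in all, and ranged from 0 to 3 when 1 library was left out. It was 0 without shBrca2 replicate 2, shBrca2 replicate 3, shControl replicate 2 or shControl replicate 3, and 3 without shControl replicate 1 (Hnrnpdl, Sf3b4 and Snrpg). Members without overlap between groups numbered 9 to 21 when 1 library was left out, where fewer libraries separate more easily. The 21 came without shControl replicate 1. The share of all genes without overlap was not computed for these fits, so these counts cannot be set against a background. The median member log2 fold change ranged from -0.083 to 0.0091 in those fits, and Brca2 from -1.70 to -1.46, with its call lost in 3 of them. Fold changes near 0 changed sign when 1 library was left out, over ranges of -0.16 to 0.0043 for Srsf9, -0.28 to 0.027 for Sf3b5, -0.041 to 0.12 for Snrpf, -0.32 to 0.089 for U2af1 and -0.10 to 0.14 for U2af1l4, and U2af1l4 was -0.0014 with total count size factors. The cause was not tested. Of 427 comparisons over 27 named genes 389 kept their direction and stayed called or not called, 24 lost a call, 2 gained one and 12 changed sign. Log2 ratios of family shares moved by less than the spread of the replicates in every alternative tried. Leaving out 1 library gave 0.093 to 0.19 for SR, -0.068 to 0.075 for hnRNP, -0.37 to -0.15 for SF3, -0.19 to -0.14 for Snrp and -0.16 to -0.031 for U2af. Named members whose fold change moved by over 1.5 times in such fits without passing a threshold were Srsf5 (0.11 to 0.25), Srsf2 (0.046 to 0.29), Srsf3 (0.073 to 0.74), Hnrnpab (-0.31 to -0.034), Hnrnpk (0.13 to 0.36), Hnrnpll (0.21 to 0.71), Sf3b2 (-0.25 to -0.039), Sf3a3 (-0.42 to -0.13), Snrpb (-0.22 to -0.067), Snrpd1 (-0.40 to -0.10) and U2af2 (-0.56 to -0.023). No paired analysis was possible because the labels give no replicate numbers. Levels of genes under a base mean of 20, which were 7 of the members, are limited by depth.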
